A study of Salmo trutta with 24 samples.

Results

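The transcripts described here encode the nuclear receptors and liver transcription factors of the brown trout (Salmo trutta), read in the livers of male fish exposed to 17β-oestradiol (E2) or to linuron. They were chosen by name and not by any measured value, although earlier results of these data were known. A contig of the de novo assembly was taken if its first annotation, looked up in zebrafish, then in human and mouse, then in other fish, named a nuclear receptor subfamily, a retinoid X, retinoic acid, thyroid hormone or androgen receptor, a peroxisome proliferator protein, a nuclear factor, a CCAAT/enhancer protein, a forkhead box protein or vitamin D. Annotations of the Rev-erb group (subfamily 1, group D) and oestrogen receptors were left out. The search found 389 contigs under 94 gene identifiers, among 66359 contigs of which 36932 carried an annotation. Of the 389, 325 were listed in all 6 of the deposited tables. The tables pair each contig with a gene name, and the zebrafish-style symbols used below were assigned from those names. Of the 94 genes, 29 shared an assembly component with another member and could have exchanged reads with it. They lay among the nuclear factor 1, NFE2, NF-kappaB and forkhead genes, the retinoid X receptors and the PPAR delta and gamma genes. Others were thyroid hormone, vitamin D and nr2f receptors, and thrap3b, which shared a component with thrap3. The name search also took in 6 genes with other functions. They were the blood vitamin D carrier gc, the basic leucine zipper protein blzf1, the telomere protein tinf2, and trip10, trip11 and trip12, and they were counted with the rest.

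Livers were sampled from 3 male fish in each of 3 E2 groups, at 34.4, 18.1 or 1.9 ng/l, from 3 males in each of 3 linuron groups, at 225.9, 15.3 or 1.7 µg/l, and from 6 control males, after 4 days (a protocol text in the sample labels gives 14 days). Linuron is a urea herbicide with anti-androgenic activity. All fish were labelled adult. The E2 and control fish came from aquaculture and were 2 years old, and the age of the linuron fish and the genotype of all fish were not given in the sources used here. Each E2 group was held in 1 tank, so that the tank and the concentration cannot be told apart, and the controls came from 2 tanks that the labels do not distinguish. The paper used here does not describe the tanks of the linuron groups, so a tank effect cannot be told apart there either. All 6 comparisons with control share the same 6 control fish, so their results are not independent of each other.

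Nuclear receptors are transcription factors that bind small lipophilic ligands such as bile acids, oxysterols, fatty acids, retinoids, thyroid hormone and steroids. Many of them act on DNA as partners of a retinoid X receptor. In liver, the farnesoid X receptor senses bile acids and induces the small heterodimer partner (SHP, gene nr0b2a), a receptor without a DNA-binding domain that represses other receptors and, in mammals, lowers bile acid synthesis. PPAR alpha drives fatty acid oxidation in fasting, and the glucocorticoid receptor, FOXO and C/EBP proteins drive gluconeogenesis and the response to stress. HNF4 and FOXA proteins maintain the identity of the hepatocyte, NF-kappaB carries inflammatory signals, and NFE2L2 (NRF2) induces antioxidant and detoxification genes.

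Read totals per fish lay between 7619612 and 7887826 at 34.4 ng E2/l, between 6668055 and 10007162 at 225.9 µg linuron/l, and between 3894392 and 8635566 in controls, with control fish 3 the shallowest. Levels are given in CPM (counts scaled to library size) after edgeR's TMM scaling, and differences as log2 fold change of exposed over control fish with its standard error (SE). A transcript was called differentially expressed at an adjusted p under 0.05 in edgeR's quasi-likelihood test, adjusted over all transcripts of that table. Member transcripts were mostly weakly expressed. Among the 389, 74 averaged under 1 CPM, 268 averaged 1 to 10 CPM, 47 exceeded 10 CPM, and 5 of these exceeded 100 CPM. The labels were checked with 8 genes, the oestrogen-response genes and cyp1a, the aryl hydrocarbon receptor target. At 34.4 ng E2/l, 120 of their 126 transcripts were called higher. Only 24 transcripts of these genes were tested at 225.9 µg linuron/l. Most of the 126 were thus listed through the E2 fish in which they are high, so the count only checks the labels. Cyp1a summed to 5107 CPM at 225.9 µg linuron/l against 11.9 CPM in controls. The tissue label was checked with 15 hepatocyte genes, which summed to 85930 to 94900 CPM in the fish at 34.4 ng E2/l, 82270 to 126200 CPM at 225.9 µg linuron/l and 103400 to 182700 CPM in controls. In bulk liver, fewer cells of a type and less RNA per cell cannot be told apart.

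At 34.4 ng E2/l, 4 of 357 member transcripts were called higher and 0 lower, in a table where 2.26% of all 59151 transcripts were called, 1.47% higher and 0.791% lower. The 4 belonged to nr0b2a and to the coregulator thrap3b. At an unadjusted p under 0.05, the members counted 14 higher and 43 lower, or 16.0%, against 13.5% of all transcripts. By the other tools, 0 calls lower became 5 under edgeR's exact test, which called 3.57% of all transcripts, and 16 under DESeq2, which called 4.81%, beside 5 higher under each. Leaving out a fish changed the count of members and that of all transcripts called, which was 1338 with every fish. Without control fish 1, 7 members and 1614 transcripts in all were called, and without control fish 4, 8 and 1758. Without E2 fish 1, 2 members and 393 transcripts were called, and without E2 fish 3, 2 and 466. The members' median log2 fold change was -0.17, against 0.02 over all transcripts, and with scaling by library totals these medians were 0.03 and 0.22. In 10 members all 3 exposed fish were above all 6 controls and in 15 all were below. These counts were 2.80% and 4.20% of members, against 5.22% and 3.57% of all transcripts.

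**Figure D1:**
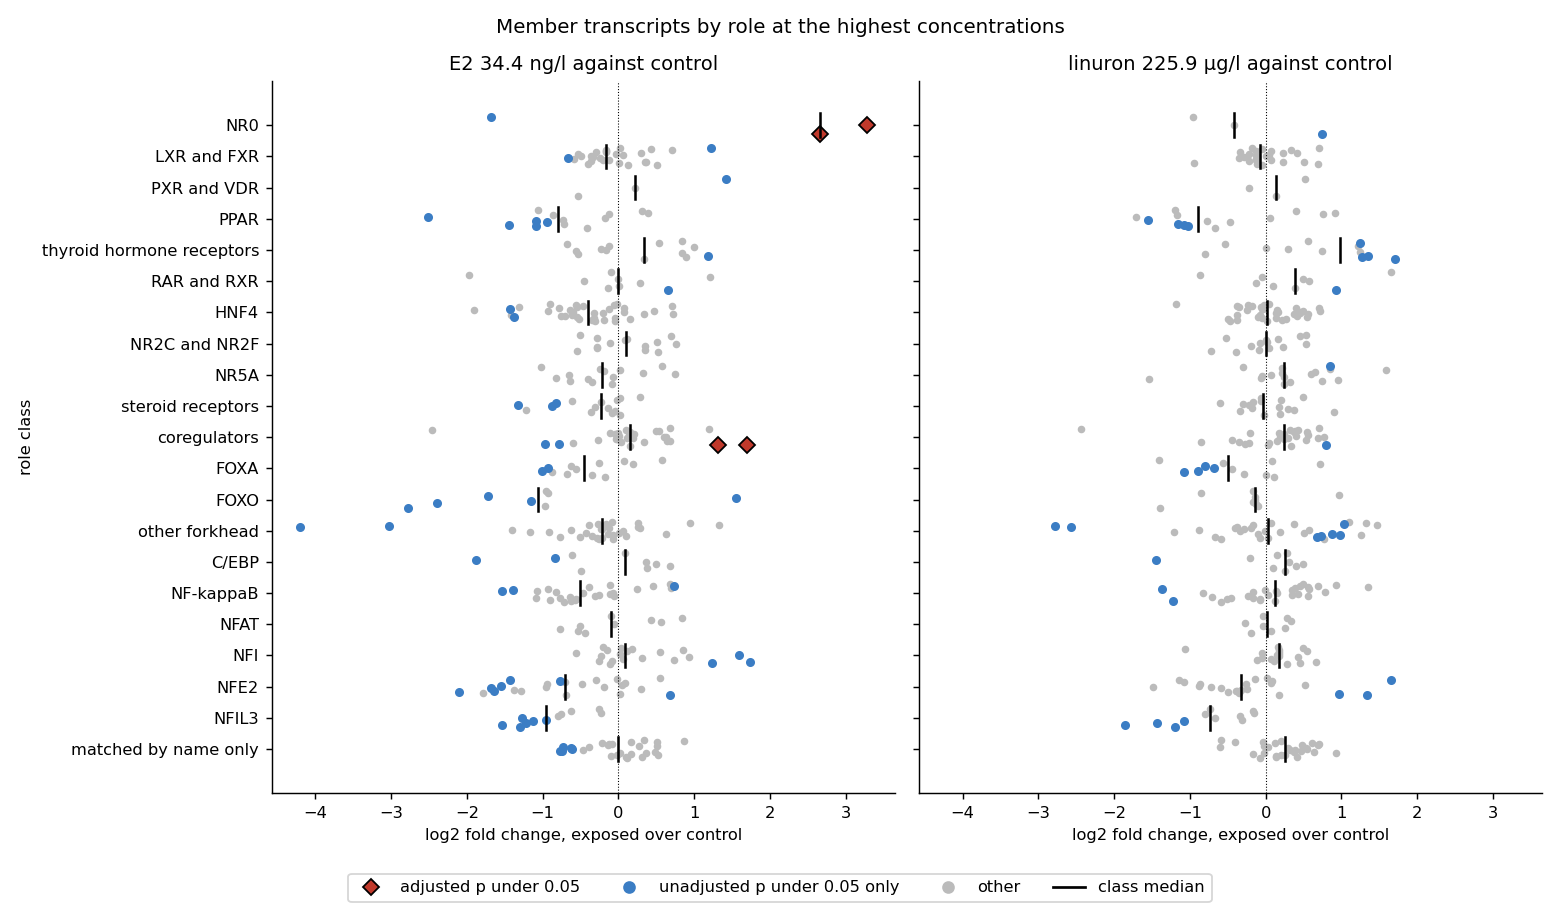
Log2 fold change of every tested member transcript by functional class, at 34.4 ng E2/l (left) and 225.9 µg linuron/l (right) over control. Red diamonds mark adjusted p under 0.05, blue points an unadjusted p under 0.05, grey points the others, and black lines the class medians; the called transcripts lie in the SHP and coregulator rows of the E2 panel, the FOXO, NFIL3, PPAR and NFE2 rows lie mostly left of 0 in that panel, and no member is called in the linuron panel.

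SHP was the member with the lowest p at 34.4 ng E2/l. Its most abundant contig, comp91144_c1_seq2, stood at 260, 225.6 and 336.1 CPM in the fish at 34.4 ng E2/l, against 29.0 to 79.42 CPM with a median of 33.39 CPM in controls. Every exposed fish was above every control, with no overlap. The log2 fold change was 2.66 (SE 0.32, edgeR adjusted p = 0.000117). A second contig of the same component, seq1, stood at 67.87, 51.85 and 54.71 CPM against 2.218 to 16.46 CPM with a median of 3.908 CPM in controls, a log2 fold change of 3.28 (SE 0.48, edgeR adjusted p = 0.000999). It also separated the groups completely. A contig from another component with the same annotation, comp90321_c0_seq2, did not follow: it stood at 16.73, 23.34 and 18.47 CPM in exposed fish, inside the control range of 6.329 to 106 CPM with a median of 59.24 CPM (log2 fold change -1.68, edgeR adjusted p = 0.186). Summed over the 3 contigs, nr0b2a averaged 353 CPM in exposed fish and 112 CPM in controls, a log2 fold change of 1.66 (SE 0.34, edgeR adjusted p = 0.018). It was the only 1 of 88 summed member genes called in that comparison, where 2.18% of all summed annotations were called, 1.44% higher and 0.745% lower. Both contigs of the first component remained called under all 17 alternative analyses.

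**Figure D2:**
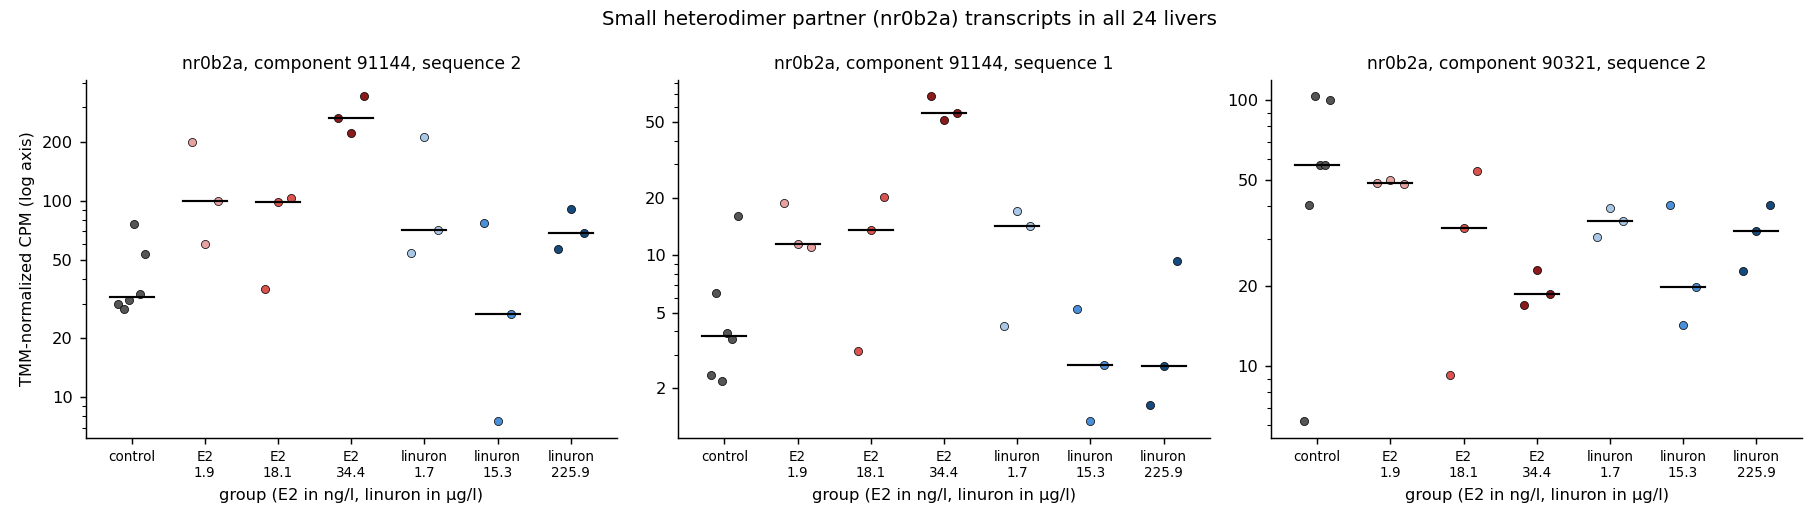
CPM of the 3 nr0b2a (SHP) contigs in each of the 24 fish, on a log axis, by group in order of concentration with controls at the low end; lines are group medians. In both contigs of component comp91144_c1 the 3 fish at 34.4 ng E2/l sit above all controls, while in the third contig they lie inside the control range.

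At the lower E2 concentrations the SHP contig comp91144_c1_seq2 had log2 fold changes of 1.46 (1.9 ng E2/l) and 0.87 (18.1 ng E2/l), without a call, and the sum of the 3 contigs had 0.71 and 0.15. On a common scale over all 24 fish its mean was 119 ± 71.6 CPM in the 1.9 ng E2/l fish, 79.0 ± 37.6 CPM in the 18.1 ng E2/l fish and 276 ± 60.4 CPM in the 34.4 ng E2/l fish (SD, 3 fish each), beside 42.2 ± 19.2 CPM in the 6 controls (SD). The spread within the lower groups reached from 35.64 to 199 CPM and overlapped the controls. In the linuron groups nr0b2a was not called at any concentration. Contig seq2 of comp91144_c1 had fold changes of 1.38 at 1.7 µg/l, -0.23 at 15.3 µg/l and 0.74 at 225.9 µg/l on the log2 scale, the highest of the 3 contigs at each concentration. At 225.9 µg linuron/l its 3 fish stood at 55.9, 89.19 and 67.14 CPM (edgeR adjusted p = 0.561), while the other contigs had -0.42 and -0.96. Summed over the 3 contigs, nr0b2a stood there at 80.08, 124.3 and 114.4 CPM, inside the control range of 39.19 to 171.3 CPM (log2 fold change -0.04, SE 0.37, edgeR adjusted p = 0.993).

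The receptors upstream of SHP in bile acid and sterol signalling were not called. The farnesoid X receptor nr1h4 had negative fold changes in 11 of 13 contigs at 34.4 ng E2/l, none past the threshold. Its most abundant contig stood at 11.82, 21.89 and 15.35 CPM in exposed fish, against 16.89 to 21.49 CPM with a median of 20.13 CPM in controls. The exposed fish lay on both sides of the control range, with a log2 fold change of -0.25 (SE 0.26, edgeR adjusted p = 0.779). The oxysterol receptor nr1h3 had values of 3.159, 3.489 and 3.924 CPM against 3.263 to 4.618 CPM, a log2 fold change of -0.16 (SE 0.30, edgeR adjusted p = 0.897). The pregnane X receptor nr1i2, a xenobiotic sensor, was weakly expressed at 2.223, 2.767 and 1.154 CPM against 0.279 to 1.165 CPM (log2 fold change 1.42, edgeR adjusted p = 0.259). The vitamin D receptor vdra had a log2 fold change of -0.53 (edgeR adjusted p = 0.810).

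For 16 genes known as targets of the oxysterol and bile acid receptors, 63 transcripts were tested at 34.4 ng E2/l. Of these, 2 were called higher and 4 lower, and the list median was -0.52 on the log2 scale. This and the other target lists were chosen with earlier results of these data known. Both called higher were the nr0b2a contigs already described. Those called lower belonged to cyp8b1, the sterol 12α-hydroxylase that sets the kind of bile acid made, and to lpcat3, a phospholipid-remodelling enzyme. The cyp8b1 contig seq1 stood at 41.77, 57.74 and 42.02 CPM in exposed fish, against 70.07 to 271.8 CPM with a median of 123.7 CPM in controls. All exposed fish were below all controls (log2 fold change -1.60, edgeR adjusted p = 0.0440), and the call held in 10 of 17 alternatives. The lpcat3 contig had a log2 fold change of -1.58 (edgeR adjusted p = 0.0431) and held in 8 of 17. The list's 6 calls became 2 without control fish 2, control fish 3 or any 1 of the E2 fish, 3 without control fish 5 and 10 without control fish 4. Without any 1 E2 fish the adjusted p reached 0.278 for cyp8b1 and 0.201 for lpcat3.

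No PPAR was called by edgeR's quasi-likelihood test. By its own edgeR comparison of the same fish, the paper lists ppardb, under PPAR signalling, as differentially regulated. It does so in a passage on terms enriched among upregulated transcripts, and does not say which contig is meant. PPAR transcripts had a median log2 fold change of -0.80 at 34.4 ng E2/l over 14 contigs, 5 of them lower at an unadjusted p under 0.05. The PPAR delta contig ppardb seq6 stood at 8.191, 14.31 and 10.62 CPM against 13.4 to 49.6 CPM with a median of 25.05 CPM in controls. The highest exposed fish overlapped the lowest control (log2 fold change -1.45, SE 0.41, edgeR adjusted p = 0.0883, and 0.0396 without control fish 6). PPAR alpha, the fatty acid sensor pparab, had its most abundant contig at 2.574, 3.248 and 1.616 CPM against 1.557 to 12.66 CPM, and the groups overlapped (log2 fold change -1.07, SE 0.55, edgeR adjusted p = 0.440). The adipocyte receptor pparg had a log2 fold change of 0.39 (edgeR adjusted p = 0.853). Among 25 PPAR target genes, 5 of 101 transcripts were called higher and 0 lower, and all 5 were cpt1b, a mitochondrial carnitine palmitoyltransferase that admits fatty acids for oxidation. Its contig with the lowest p stood at 41.89, 54.25 and 46.17 CPM in exposed fish, against 1.71 to 5.68 CPM with a median of 2.436 CPM in controls. No exposed fish came near a control, and the log2 fold change was 3.99 (SE 0.34, edgeR adjusted p = 2.32e-06). The median over the PPAR target list was -0.07, close to the 0.02 of all transcripts.

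The coregulator thrap3b, named as a thyroid hormone receptor associated protein and known in mammals for a part in RNA processing, supplied the other 2 called member transcripts. The contig comp92895_c1_seq10 stood at 13.57, 8.541 and 18.93 CPM in the fish at 34.4 ng E2/l, against 2.566 to 5.421 CPM with a median of 4.364 CPM in controls, a log2 fold change of 1.70 (SE 0.31, edgeR adjusted p = 0.00662). The contig seq9 of that component stood at 15.45, 13.23 and 21.58 CPM against 3.592 to 8.739 CPM with a median of 7.104 CPM, a log2 fold change of 1.31 (SE 0.29, edgeR adjusted p = 0.0254). Neither contig overlapped its controls. The gene as a whole did not pass: summed over its 17 contigs, of which 12 had positive and 5 negative fold changes, the log2 fold change was 0.41 (edgeR adjusted p = 0.607). The seq10 call was lost without E2 fish 1 (adjusted p = 0.0590) or E2 fish 3 (adjusted p = 0.104), and the seq9 call without any 1 E2 fish, control fish 2 or control fish 3 (adjusted p up to 0.222). The seq9 call was also lost in the model of all 7 groups (adjusted p = 0.0795). A list of 20 receptor coregulators, which also names members such as ppargc1a, had 108 transcripts of 19 genes tested. Of these, 1 was called, in ncoa6, a nuclear receptor coactivator, at 13.34, 6.977 and 17.55 CPM against 1.395 to 5.971 CPM (log2 fold change 1.83, edgeR adjusted p = 0.0481). That call held in 7 of 17 alternatives and, of the fits without 1 fish, only without control fish 2 or control fish 6. The fasting coactivator ppargc1a was read at 0.351, 0.481 and 1.385 CPM in exposed fish, and in controls at 0 to 23.43 CPM with a median of 0.412 CPM. Control fish 1 alone held the highest value.

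The member receptors and forkhead factors of gluconeogenesis and stress were not called at 34.4 ng E2/l. Contigs of tat, igfbp1a and g6pca.1, genes listed as their targets, were called lower, as described below. That list was chosen with earlier results of these data known. The paper reports tat and igfbp1a as lower in the same fish, so these calls are not an independent test. The glucocorticoid receptor nr3c1 had its most abundant contig at 3.159, 6.376 and 4.963 CPM against 1.748 to 7.319 CPM in controls, a log2 fold change of -0.04 (SE 0.42, edgeR adjusted p = 0.984). The androgen receptor ar had 8 of 8 contigs negative. Its most abundant contig stood at 6.319, 8.421 and 8.08 CPM against 7.976 to 20.87 CPM with a median of 12.55 CPM, so that the groups overlapped at their edge (log2 fold change -0.88, SE 0.33, edgeR adjusted p = 0.232). The FOXO proteins, forkhead factors silenced by insulin, had a median of -1.06 over 8 contigs, 4 lower and 1 higher at an unadjusted p under 0.05. Foxo1a stood at 2.223, 0.962 and 1.731 CPM against 2.024 to 41.91 CPM with a median of 6.039 CPM, and the highest control was control fish 1. Its log2 fold change was -2.78 (SE 0.86, edgeR adjusted p = 0.128), and -1.67 without control fish 1 (adjusted p = 0.104).

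The C/EBP factors, leucine zipper proteins of the acute-phase and gluconeogenic programmes, shared that control fish. Cebpd stood at 46.45, 57.62 and 40.17 CPM in the fish at 34.4 ng E2/l, against 49.67 to 546.8 CPM with a median of 123 CPM in controls. One exposed fish was inside the control range, and the highest control was again fish 1. The log2 fold change was -1.88 (SE 0.61, edgeR adjusted p = 0.151), and without control fish 1 the adjusted p was 0.0923. Cebpb stood at 96.07, 68.93 and 103.4 CPM, all below the controls at 109.9 to 299 CPM with a median of 129.7 CPM (log2 fold change -0.84, SE 0.33, edgeR adjusted p = 0.247). Cebpa, the C/EBP of the differentiated hepatocyte, had a log2 fold change of -0.49 (edgeR adjusted p = 0.579).

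NFIL3 proteins, leucine zipper repressors tied to the clock, were negative in 11 of 11 contigs at 34.4 ng E2/l, from 3 genes. The class median was -0.95 on the log2 scale. At an unadjusted p under 0.05, 6 were lower, beside 13.5% of all transcripts in either direction. At 1.9 ng E2/l the median was -0.94 with 7 of 11 lower by that p, and at 18.1 ng E2/l -0.15 with 4. Among the linuron fish it was -0.26 at the lowest concentration, 0.01 at the middle one and -0.74 at the highest. The same control fish enter all these medians, and their part was not tested. For nfil3-6, contig comp91538_c0_seq3, the fish at 34.4 ng E2/l stood at 6.787, 6.135 and 9.58 CPM. All were below the controls at 11.33 to 27.2 CPM with a median of 18.17 CPM. Its log2 fold change of -1.27 (SE 0.33) had an edgeR adjusted p of 0.0576, and 0.0387 without control fish 3. For nfil3-5, contig seq3, values of 7.372, 7.699 and 8.888 CPM overlapped the lowest control at 8.253 CPM, with the highest control at 41.44 CPM (log2 fold change -1.54, SE 0.42, edgeR adjusted p = 0.0782, and 0.0138 without control fish 4).

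Of 64 transcripts of 16 glucocorticoid and FOXO target genes, 17 were called lower and 0 higher at 34.4 ng E2/l, with a list median of -1.89 on the log2 scale against 0.02 over all transcripts. Tyrosine aminotransferase, tat, which degrades tyrosine in fasting, made up 15 of the 17. Its contig with the lowest p stood at 74.42, 72.18 and 73.3 CPM in exposed fish, against 285.3 to 382.8 CPM with a median of 344.9 CPM in controls. The exposed fish lay close together and far below the controls, and the log2 fold change was -2.21 (SE 0.23, edgeR adjusted p = 2.68e-05). The insulin-like growth factor carrier igfbp1a stood at 7.372, 14.56 and 4.386 CPM against 44.54 to 1372 CPM with a median of 303.9 CPM, again with no overlap (log2 fold change -5.66, SE 0.98, edgeR adjusted p = 0.00466). That call was lost without E2 fish 1 (adjusted p = 0.0686) or E2 fish 3 (adjusted p = 0.0592). The glucose-6-phosphatase gene g6pca.1, the last step of glucose release, had a log2 fold change of -1.29 (edgeR adjusted p = 0.0235) and was lost without control fish 2 or any 1 E2 fish (adjusted p up to 0.193). The list's 17 calls became 10 without E2 fish 1 and 11 without E2 fish 2. The list median was also negative in every other exposed group, without a call. Among the E2 fish it was -0.68 at 1.9 ng/l and -0.75 at 18.1 ng/l. Among the linuron fish it was -0.97 at the highest concentration, -0.16 at the middle one and -1.05 at the lowest. All these medians rest on the same control fish, and the part of the controls in them was not tested.

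**Figure D3:**
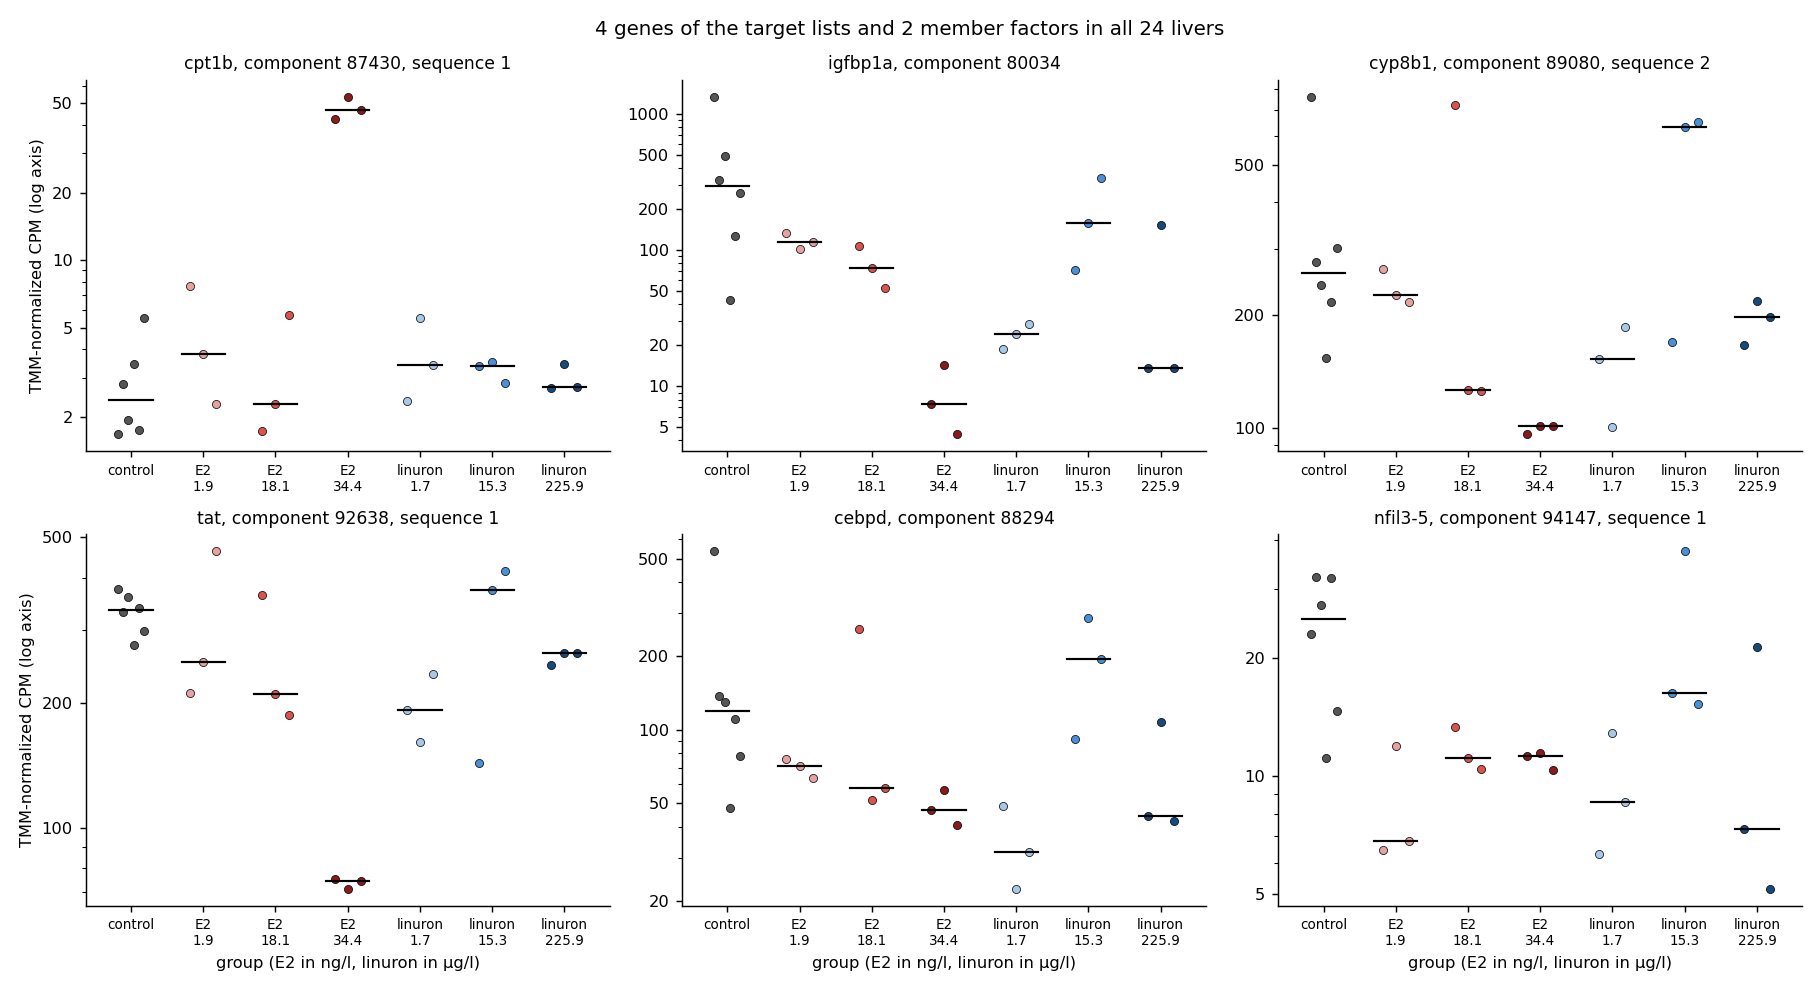
CPM in each of the 24 fish, on log axes, for the receptor targets cpt1b, igfbp1a, cyp8b1 and tat and for the members cebpd and nfil3-5, by group in order of concentration with controls at the low end; lines are group medians. The 3 fish at 34.4 ng E2/l stand above all controls for cpt1b and below all controls for igfbp1a, cyp8b1 and tat, and overlap them for cebpd and nfil3-5.

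The factors of hepatocyte identity were not called at 34.4 ng E2/l. Hnf4a, the orphan receptor that activates a large part of the hepatocyte programme, was assembled as 32 contigs, of which 25 were negative and 7 positive. Its most abundant contig stood at 30.66, 35.25 and 29.09 CPM against 27.56 to 59.22 CPM with a median of 43.91 CPM in controls. For this contig the exposed fish were within the control range (log2 fold change -0.47, SE 0.26, edgeR adjusted p = 0.499). Summed over the 31 contigs listed in every table, hnf4a stood at 73.45, 71.16 and 84.46 CPM in exposed fish on the common scale. All were below the controls at 85.78 to 108.2 CPM. The sum over all its contigs was not called. The pioneer factor foxa2, which opens liver chromatin, had contig seq2 at 4.68, 5.052 and 5.425 CPM, all below the controls at 6.697 to 11.8 CPM (log2 fold change -0.93, SE 0.27, edgeR adjusted p = 0.104). Foxa3 stood at 31.59, 27.43 and 31.4 CPM against 23.65 to 59.35 CPM (log2 fold change -0.35, edgeR adjusted p = 0.698). The cofactor pcbd1, which dimerizes HNF1 alpha, had a log2 fold change of -0.97 (edgeR adjusted p = 0.147). The orphan receptor nr5a2, an activator of bile acid genes in mammals, had a log2 fold change of 0.01 in its most abundant contig (edgeR adjusted p = 0.998), and the related nr5a5 one of 0.57 (edgeR adjusted p = 0.464).

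Hepatocyte marker transcripts moved at this concentration. Of 175 transcripts, 32 were called lower, 26 of apobb and 6 of fgg, and 1 higher, and the list median was -0.90 on the log2 scale. The 8 leukocyte genes summed to 233.6 to 296.9 CPM in exposed fish against 269.5 to 570.7 CPM in controls, with 0 of 24 transcripts called. The 8 endothelial and stellate genes summed to 36.12 to 41.64 CPM against 45.92 to 71.17 CPM, with no overlap and 0 of 19 transcripts called. The median of the hepatocyte list was also negative at 1.7 and 225.9 µg linuron/l, at -0.61 and -0.63. It was -0.11 at 1.9 and -0.12 at 18.1 ng E2/l, and 0.20 at 15.3 µg linuron/l. In all these groups 0 of its 175 transcripts were called. The part of these markers in the members' values was not tested.

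No retinoid receptor was called at 34.4 ng E2/l. The retinoid X receptor rxrba, the shared partner of many members, stood at 24.81, 32.72 and 20.66 CPM against 25.32 to 32.7 CPM (log2 fold change -0.14, SE 0.24, edgeR adjusted p = 0.883). Rxrgb had a log2 fold change of 0.66 (edgeR adjusted p = 0.340) and rxraa one of -0.46 in its most abundant contig (edgeR adjusted p = 0.697). Of 30 transcripts of 11 retinoid genes, 1 was called higher and 1 lower. The retinol dehydrogenase rdh10a, which oxidizes retinol on the way to retinoic acid, stood at 22.7, 18.65 and 18.47 CPM against 0 to 0.986 CPM in controls with a median of 0.603 CPM. It is the 1 called higher, but it was listed in the table of this concentration alone, through the fish in which it is high, so its values are given as a description. The retinol carrier rbp4l fell by 1.43 on the log2 scale (edgeR adjusted p = 0.0211), a call lost without any 1 E2 fish (adjusted p up to 0.194). Without control fish 1 the list had 6 calls.

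In the NFE2 family, leucine zipper factors of the antioxidant response, the median at 34.4 ng E2/l was -0.71 on the log2 scale. At an unadjusted p under 0.05, 6 of 23 transcripts were lower and 1 higher, beside 13.5% of all transcripts in either direction. The family median was also negative in the other E2 groups, at -0.64 (1.9 ng/l) and -0.71 (18.1 ng/l). Among the linuron fish it was -0.78 at the lowest concentration, -0.02 at the middle one and -0.32 at the highest. These medians share the control fish, whose part in them was not tested. The most abundant nfe2l2a contig, comp89542_c0_seq1, stood at 37.68, 33.44 and 34.05 CPM in the fish at 34.4 ng E2/l. All were below the controls at 49.91 to 73.03 CPM with a median of 55.31 CPM. The difference did not pass (log2 fold change -0.77, SE 0.24, edgeR adjusted p = 0.121). Among 13 PXR and NFE2L2 target genes, 0 of 56 transcripts were called by edgeR's quasi-likelihood test and 1 each by its exact test and DESeq2. In the NF-kappaB group the inhibitor nfkbiab was negative in 5 of 5 contigs, the lowest p at 0.702, 0.722 and 1.039 CPM against 1.09 to 4.447 CPM (log2 fold change -1.54, edgeR adjusted p = 0.196), and the subunit nfkb2 in 12 of 14. Summed per gene on the common scale, both lay inside the control range, nfkbiab at 11.14, 11.4 and 11.38 CPM against 4.652 to 49.02 CPM. The inhibitor nfkbib went the other way, at 10.43, 7.247 and 9.267 CPM, above all controls at 4.349 to 6.93 CPM.

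Of the remaining members, nfic and foxg1b had the lowest p of their classes, and neither was called with every fish included. The nuclear factor 1 gene nfic had a contig at 2.808, 3.128 and 3.924 CPM, all above the controls at 0.246 to 1.395 CPM, with a log2 fold change of 1.73 (SE 0.45, edgeR adjusted p = 0.0613). The forkhead gene foxg1b, known from the forebrain, was at 0.702, 0.722 and 0.923 CPM against 0 to 33.11 CPM with a median of 15.06 CPM in controls. The controls spanned the whole range, and the log2 fold change was -4.20 (SE 1.11, edgeR adjusted p = 0.0676). Without control fish 1 it was called (adjusted p = 0.00253), and also without control fish 6 (adjusted p = 0.0384). The vitamin D carrier gc, the most abundant member, stood at 2111, 2217 and 1674 CPM against 654.3 to 3676 CPM (log2 fold change -0.21, edgeR adjusted p = 0.904).

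At the lower E2 concentrations no member was called. At 1.9 ng E2/l, 0 of 341 members passed edgeR's quasi-likelihood test, the exact test or DESeq2, which called 0%, 0.00541% and 0.0216% of all transcripts. At an unadjusted p under 0.05 there were 19, or 5.57%, against 4.07% of all. At 18.1 ng E2/l, 0 of 347 passed any of these tests, beside 0%, 0.00351% and 0.00176% of all, and 15 were at an unadjusted p under 0.05, or 4.32% against 2.54%. The member with the lowest p at 1.9 ng E2/l was nfil3-5, at 5.991, 11.26 and 6.395 CPM against 10.59 to 31.03 CPM in controls, a log2 fold change of -1.50 (edgeR adjusted p = 1). One of the exposed fish was inside the control range.

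Linuron produced no member calls at any concentration. At 225.9 µg linuron/l, 0 of 358 members were called, where 0.153% of all 57544 transcripts were, 0.123% higher and 0.0295% lower. At an unadjusted p under 0.05 there were 33, or 9.22%, 16 higher and 17 lower, against 8.61% of all. The exact test called 2 members higher (0.779% of all transcripts in either direction), and DESeq2 called 3 higher and 1 lower (1.33% of all). In 15 members all 3 exposed fish were above all controls, or 4.19% against 2.86% of all transcripts, and in 2 all were below, against 2.05% of all. At 1.7 µg linuron/l edgeR called 0 of 363 members (0% of all transcripts), the exact test 1 (0.145% of all) and DESeq2 5 (0.356% of all), and 27 or 7.44% had an unadjusted p under 0.05, against 6.27% of all. At 15.3 µg linuron/l all these tests called 0 of 352 members (0%, 0.0285% and 0.016% of all), and 16 or 4.55% had an unadjusted p under 0.05, against 4.8% of all.

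The member with the lowest p at 225.9 µg linuron/l was an nfe2l2a contig, comp83584_c0_seq1, the NRF2 factor of the antioxidant response. It stood at 20.18, 14.46 and 17.69 CPM in exposed fish, against 3.826 to 8.269 CPM with a median of 4.583 CPM in controls. All exposed fish were above all controls, and the log2 fold change of 1.66 (SE 0.31) had an edgeR adjusted p of 0.0535. It passed in 6 of 17 alternatives, among them the exact test (adjusted p = 0.00336), DESeq2 (adjusted p = 0.000409) and the fit without control fish 4 (adjusted p = 0.0334). Over the alternatives, which include the sum per gene, the log2 fold change went down to 0.26 and the edgeR adjusted p up to 0.795. Summed over its 4 contigs on the common scale, nfe2l2a stood at 94.44, 91.93 and 93.35 CPM against 63.66 to 91.84 CPM in controls. The related nfe2l1, a regulator of proteasome genes in mammals, had contig comp93363_c0_seq2 at 7.864, 6.41 and 10.45 CPM against 2.37 to 4.304 CPM, also without overlap (log2 fold change 1.34, SE 0.30, edgeR adjusted p = 0.130). Over the whole NFE2 family the median log2 fold change was -0.32, with 3 of 23 transcripts higher at an unadjusted p under 0.05.

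Among targets of NFE2L2 and PXR, transcripts of a pair of glutathione genes were called higher at 225.9 µg linuron/l. That list too was chosen with earlier results of these data known, so its values are not an independent test. Of 56 transcripts of 13 genes, 2 were called higher and 0 lower, where 0.153% of all transcripts were called. In the list 53 had a positive fold change, and the median was 0.47 on the log2 scale against 0.01 over all transcripts. The glutathione transferase gsto1 stood at 186.2, 212.6 and 133.4 CPM in exposed fish, against 31.14 to 78.82 CPM with a median of 49.86 CPM in controls (log2 fold change 1.73, SE 0.29, edgeR adjusted p = 0.0326). Gclc, the rate-limiting subunit of glutathione synthesis, stood at 59.97, 70.24 and 42.48 CPM against 14.44 to 25.56 CPM with a median of 18.58 CPM (log2 fold change 1.54, SE 0.26, edgeR adjusted p = 0.0340). Both separated the groups completely. The gsto1 call held in 10 and the gclc call in 9 of 17 alternatives. Without any 1 of the linuron fish, or without control fish 3, 5 or 6, neither was called, and the adjusted p reached 0.245 for gsto1 and 0.253 for gclc. Without control fish 2 gsto1 alone was called.

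**Figure D4:**
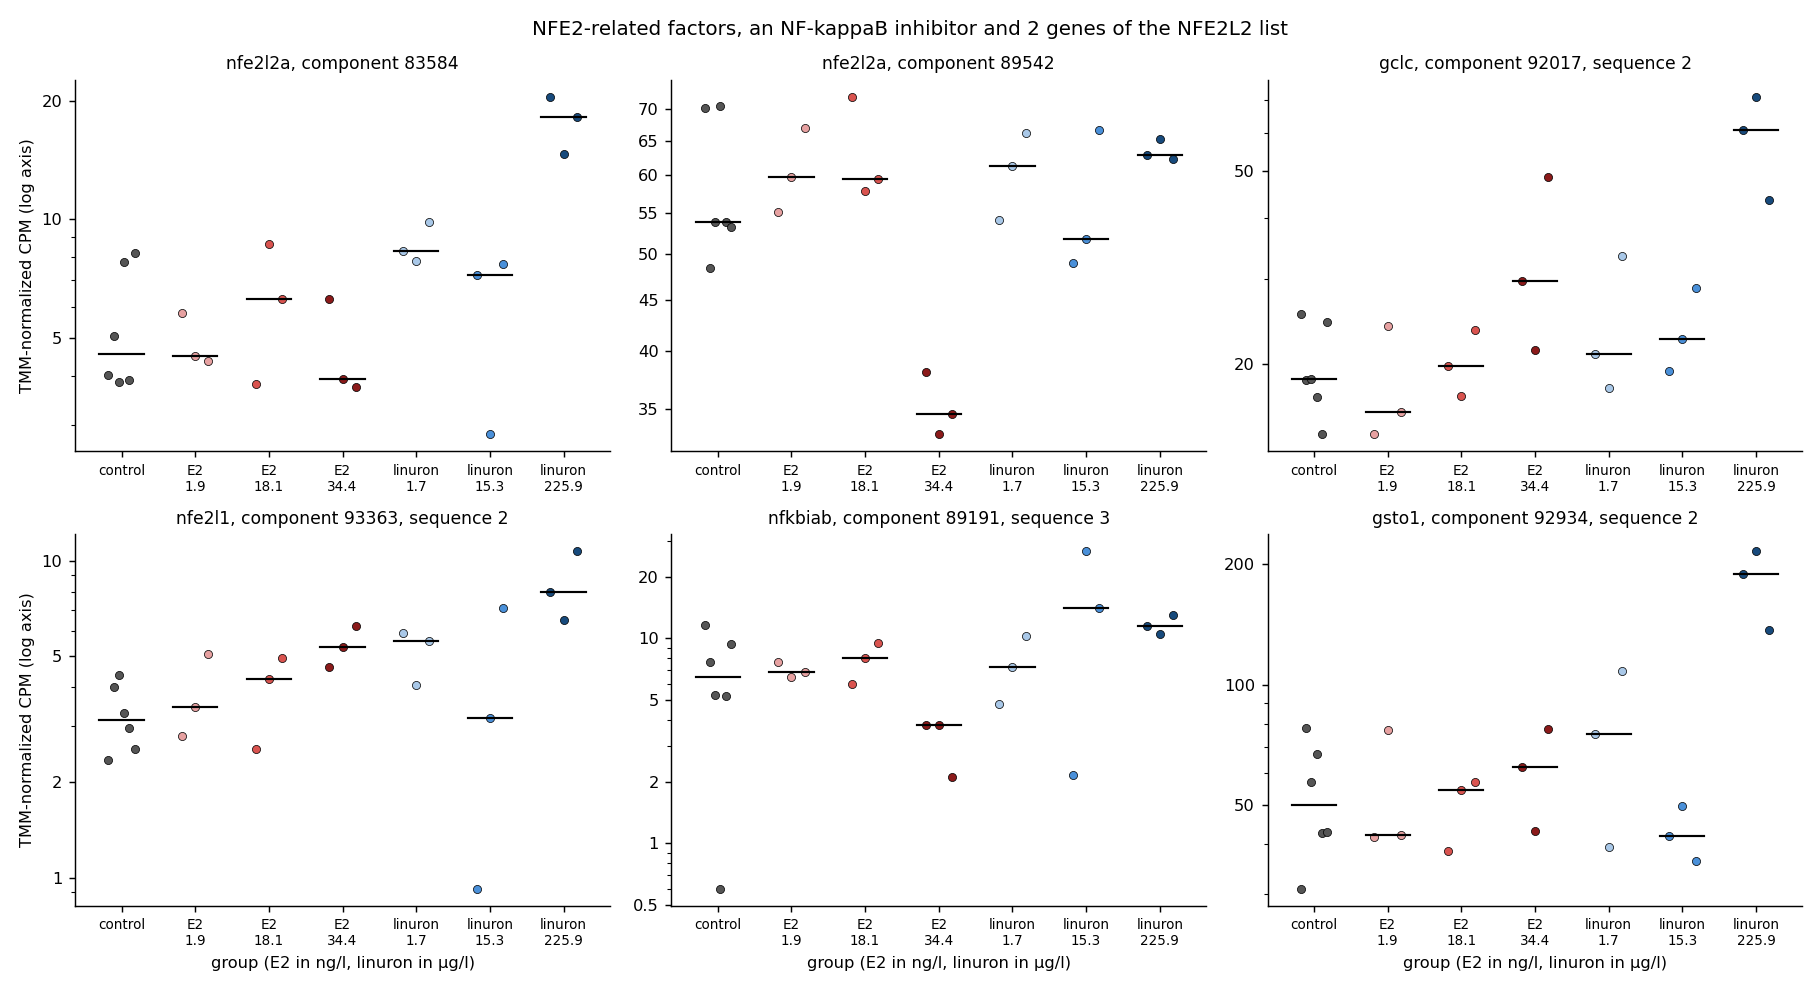
CPM in each of the 24 fish, on log axes, for contigs of the antioxidant factors nfe2l2a (2 contigs) and nfe2l1, the inhibitor nfkbiab, and the targets gclc and gsto1, by group in order of concentration with controls at the low end; lines are group medians. The fish at 225.9 µg linuron/l stand above all controls for nfe2l2a contig comp83584_c0_seq1, nfe2l1, gclc and gsto1, and the fish at 34.4 ng E2/l stand below all controls for nfe2l2a contig comp89542_c0_seq1.

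The receptors were not called at 225.9 µg linuron/l. In these fish the 3 pancreatic acinar genes of the marker lists summed to 106.2 to 162.4 CPM against 19.81 to 87.33 CPM in controls, without overlap, and the 4 erythrocyte genes to 464.8 to 1631 CPM against 166.2 to 692 CPM, with 0 of 6 and 0 of 10 transcripts called. The leukocyte genes (297.9 to 571.3 CPM against 269.5 to 570.7 CPM) and the endothelial and stellate genes (46.65 to 54.24 CPM against 45.92 to 71.17 CPM) overlapped the controls. The sum of the hepatocyte genes, given above, overlapped them too, with a list median of -0.63 on the log2 scale. The part of these markers in the values that follow was not tested. The thyroid hormone receptor thrb was positive in 9 of 9 contigs, and summed over them it averaged 28.4 CPM in exposed fish and 13.6 CPM in controls (log2 fold change 1.06, edgeR adjusted p = 0.200). Its contig seq24 stood at 4.737, 2.455 and 3.204 CPM against 0.717 to 1.853 CPM (log2 fold change 1.35, SE 0.40, edgeR adjusted p = 0.290). The receptor nr5a5 stood at 61.39, 51.55 and 41.51 CPM, all above the controls at 14.39 to 40.61 CPM (log2 fold change 0.85, edgeR adjusted p = 0.440). A forkhead gene annotated as foxk2 had a contig at 27.57, 25.37 and 26.74 CPM against 10.28 to 19.97 CPM (log2 fold change 0.88, edgeR adjusted p = 0.293). The androgen receptor, the receptor that linuron is known to antagonize, had its most abundant contig at 9.0, 16.09 and 8.357 CPM, inside the control range of 7.835 to 20.65 CPM (log2 fold change -0.30, SE 0.35, edgeR adjusted p = 0.899). The glucocorticoid receptor nr3c1 had a log2 fold change of 0.29 (edgeR adjusted p = 0.919) and hnf4a one of -0.38 in its most abundant contig (edgeR adjusted p = 0.774). Summed per gene on the common scale, thrb, nr5a5 and the foxk2 gene were also above all controls at the lowest linuron concentration. Thrb stood there at 24.69, 31.97 and 19.35 CPM against 6.765 to 16.81 CPM. At the middle linuron concentration all of them overlapped the controls. Thrb was also above all controls at the highest E2 concentration (19.67, 18.06 and 19.47 CPM), and overlapped them at the lower ones. All rest on the same controls, whose part was not tested.

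Some classes had mostly negative fold changes at the highest linuron concentration. At 225.9 µg linuron/l, NFIL3 transcripts were negative in 11 of 11 (median -0.74 on the log2 scale), and PPAR transcripts had a median of -0.90. The PPAR median was -0.20 at 1.7 µg linuron/l and -0.18 at 15.3 µg linuron/l. Nfil3-5 contig seq3 stood at 4.927, 9.956 and 3.9 CPM against 7.959 to 40.47 CPM with a median of 22.9 CPM, with 1 exposed fish inside the control range (log2 fold change -1.86, edgeR adjusted p = 0.195). At 1.7 µg linuron/l, nfil3-5 contig seq4 stood at 5.959, 5.689 and 6.785 CPM, all below the controls at 8.303 to 39.58 CPM with a median of 26.48 CPM. Its log2 fold change of -2.02 (SE 0.43) had an edgeR adjusted p of 0.513, against 0.0328 by the exact test and 0.00178 by DESeq2. Cebpd at 1.7 µg linuron/l had a log2 fold change of -2.37 (edgeR adjusted p = 0.569), in the comparison that includes control fish 1.

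The highest concentrations of the 2 compounds, which differ in kind and in molar dose, were also set against each other without the controls. Of 342 members, 3 were called higher and 2 lower in the fish at 34.4 ng E2/l than in those at 225.9 µg linuron/l, in a comparison where 3.15% of all 54346 transcripts were called, 1.87% higher and 1.29% lower. The exact test called 3 higher and 3 lower (4.88% of all in either direction), and DESeq2 3 higher and 9 lower (4.73% of all). Without linuron fish 2, 10 members were called and 2698 transcripts in all, against 1713 with every fish, and without linuron fish 3, 11 members and 1046 transcripts. At an unadjusted p under 0.05 there were 46 members, or 13.5%, 10 higher and 36 lower, against 14.5% of all. The members' median log2 fold change was -0.22, against -0.01 over all transcripts. In 17 members every E2 fish was above every linuron fish and in 49 every one was below. These counts were 4.97% and 14.3% of members, against 10.4% and 9.64% of all transcripts.

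The largest of these differences was in SHP. The nr0b2a contig comp91144_c1_seq1 stood at 75.07, 56.05 and 60.65 CPM in the E2 fish, against 1.766, 2.873 and 10.07 CPM in the linuron fish (log2 fold change 3.73, SE 0.50, edgeR adjusted p = 0.00124), and contig seq2 differed by 1.95 (SE 0.26, edgeR adjusted p = 0.00132). The thrap3b contig seq9 was higher in E2 fish by 1.31 (SE 0.30, edgeR adjusted p = 0.0294), a call lost without E2 fish 1 or 3 or linuron fish 1 or 3 (adjusted p up to 0.149). Summed over its contigs, thrap3b had a log2 fold change of 0.04 (edgeR adjusted p = 0.973). On the other side, nfe2l2a contig comp83584_c0_seq1 stood at 6.859, 4.292 and 4.095 CPM in the E2 fish and 22.13, 16.03 and 19.68 CPM in the linuron fish, with no overlap (log2 fold change -1.92, SE 0.30, edgeR adjusted p = 0.0036). The NF-kappaB inhibitor nfkbiab, contig comp89191_c0_seq3, stood at 4.142, 4.162 and 2.303 CPM against 12.36, 11.49 and 14.1 CPM (log2 fold change -1.83, SE 0.32, edgeR adjusted p = 0.0072). Against control this contig was not called at either concentration, nor in any of 17 alternatives. Summed per gene on the common scale, nfkbiab lay inside the control range of 4.652 to 49.02 CPM in both groups. In 1 model of all 7 groups nr0b2a seq2 (adjusted p = 0.175), nfkbiab (adjusted p = 0.225) and thrap3b seq9 (adjusted p = 0.234) were no longer called. Summed per gene, in a comparison that called 3.26% of all summed annotations, 1.93% higher and 1.33% lower, nr0b2a was called higher, and nfkbiab (log2 fold change -1.33, edgeR adjusted p = 0.00625), nfe2l2a (-0.87, edgeR adjusted p = 0.0323) and a foxk2 gene (-0.98, edgeR adjusted p = 0.0331) were called lower.

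**Figure D5:**
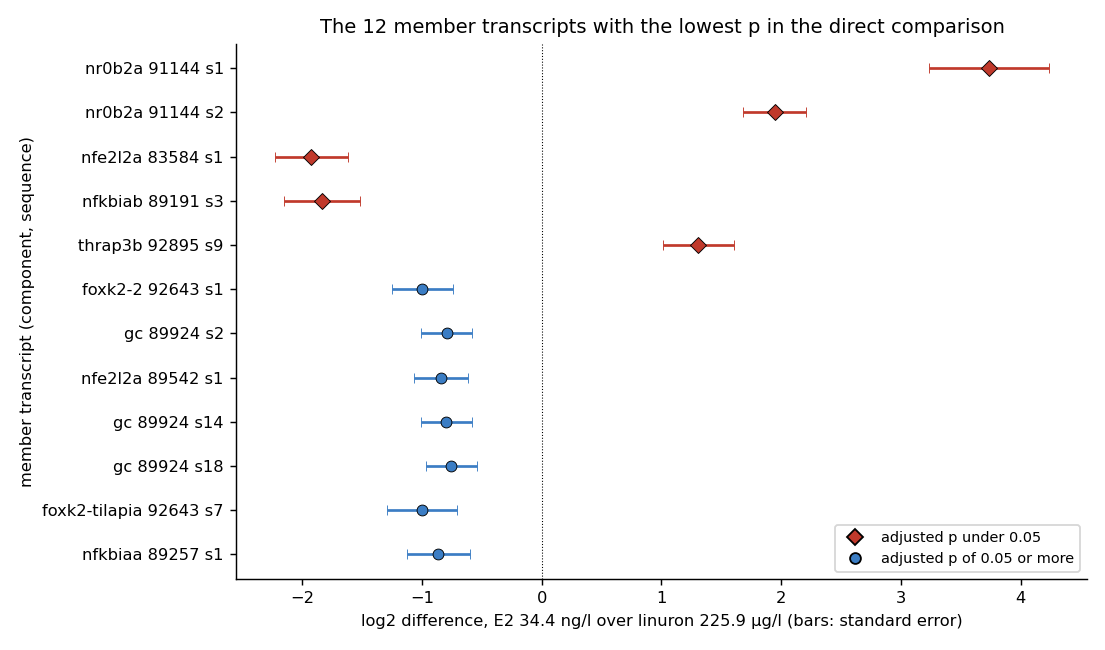
Log2 fold change of the fish at 34.4 ng E2/l over those at 225.9 µg linuron/l for the 12 member transcripts with the lowest p; bars are 1 SE. The nr0b2a contigs lie furthest right at 3.73 and 1.95, and nfe2l2a and nfkbiab lie left of 0 at -1.92 and -1.83.

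The target lists were read in the same comparison. In the coregulator list 17 of 97 transcripts were called higher in E2 fish, 16 of them ncoa4, a ferritin receptor in mammals. This count became 0 without E2 fish 1, 7 without E2 fish 2, 10 without E2 fish 3, 8 without linuron fish 1 and 7 without linuron fish 3. In the PPAR list 9 of 98 were higher and 1 lower. The 9 included 5 of cpt1b and 2 of angptl4, an inhibitor of lipoprotein lipase, at 131.4, 122.5 and 125.7 CPM in E2 fish against 16.1, 47.78 and 26.34 CPM in linuron fish (log2 fold change 2.08, edgeR adjusted p = 0.00482), and the 1 lower was lpl, lipoprotein lipase itself (log2 fold change -1.48, edgeR adjusted p = 0.0031). In the oxysterol and bile acid receptor list 2 of 62 were higher, the nr0b2a contigs, and 6 lower. Those included 4 contigs of slc51a, a bile acid exporter subunit (log2 fold change -1.51, edgeR adjusted p = 0.0053, for the lowest p), and cyp7a1, the rate-limiting enzyme of bile acid synthesis, with 2, 0 and 0 reads in the E2 fish against 153, 34 and 83 reads in the linuron fish (edgeR adjusted p = 0.000253). The 6 control fish had 8, 12, 0, 43, 2 and 8 cyp7a1 reads, a range that holds the E2 values and the linuron fish with 34 reads. The fish at 1.7 µg linuron/l had 286, 11 and 18 reads. Against control, cyp7a1 was not called at 34.4 ng E2/l or at 225.9 µg linuron/l. The 8 calls of this list became 3 without E2 fish 1 and 13 without linuron fish 2. Of the glucocorticoid and FOXO targets, 15 of 64 were lower in E2 fish and 0 higher, and of the PXR and NFE2L2 targets 3 of 55 were lower, 2 contigs of gsto1 and cyp3a65, a xenobiotic-metabolizing cytochrome. Without E2 fish 1 the counts of these lists were 6 and 0.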

How the data were processed

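RNA-seq was done on the livers of 24 male fish. The authors assembled the reads de novo with Trinity, aligned each library to the contigs with Bowtie2 2.1.0, and deposited raw counts per contig and fish, taken with SAMtools 0.1.18, in 6 tables of 1 exposed group with the controls. The deposited log2 fold changes, log2 CPM means, p-values, false discovery rates and up or down calls are the authors' edgeR comparisons and were not used. Members, symbols, role classes and target lists were chosen with earlier results of these data known, from gene names and textbook roles.

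Counts were tested in R 4.3.3 with edgeR 4.0.16 (TMM, quasi-likelihood F-test, at least 1 count in 3 fish, Benjamini-Hochberg over all transcripts of a comparison, threshold 0.05), 3 exposed fish against 6 controls, and 34.4 ng E2/l against 225.9 µg linuron/l over contigs of both tables. SE is the absolute log2 fold change divided by the square root of F. Levels on a common scale used the 50282 contigs present in every table. The tables keep contigs with reads above a low minimum, so a contig can be listed through the exposed group alone. The named transcripts were those of every called member, of well known liver regulators, and in each class of the most abundant member and those with the lowest p. Only part of them are described above. Those left out include vdrb, nr2f1a, nfkbiaa, nfatc2ip and nfixa, each the most abundant of its class. The scripts were tested on simulated counts. Alternatives were library totals, no filter, 5 CPM in 3 fish, a replicate block, edgeR's exact test, DESeq2 1.42.0, counts summed per annotation, 1 model of 7 groups, and each fish left out. Totals per fish were 3894392 to 10736246 counts. Reads carry no molecular identifiers, each fish is 1 library, and reads of near-identical contigs were placed once, so paralogues and isoforms can share reads. No sequence of the contigs was used here.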

Additional observations from a re-analysis of the deposited data

Results flagged for a closer look

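Among the 6 control fish, 54 member genes were examined for a fish standing apart, and 7 had one by Dixon's ratio at the 95% level. That level holds for independent, normally distributed values. The CPM values were not log-transformed, and several of the genes share control fish 1, so the number that chance gives is not known. Levels here are summed per gene on the common CPM scale. Control fish 1 was the highest for cebpd at 536.7 CPM (the other controls 47.87 to 137.2 CPM), cebpb at 293.4 CPM (106.4 to 167.4 CPM), foxa2 at 93.67 CPM (39.17 to 55.91 CPM) and foxo1a at 43.14 CPM (3.452 to 10.15 CPM). Control fish 5 was the highest for nfkb1 at 7.158 CPM (4.349 to 5.387 CPM). Control fish 3, the shallowest library, was the lowest for thrb at 6.765 CPM (13.15 to 16.81 CPM) and the highest for vdra at 3.141 CPM (0.671 to 1.351 CPM).

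In 5 member transcripts the fish at 34.4 ng E2/l and those at 225.9 µg linuron/l differed by edgeR's direct test. The log2 differences, E2 minus linuron, were 3.73 and 1.95 for the nr0b2a contigs seq1 and seq2 of comp91144_c1, 1.31 for thrap3b, -1.92 for nfe2l2a and -1.83 for nfkbiab.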

How the results depend on the processing

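With 4 members called at 34.4 ng E2/l, the count was 8 over contigs at 5 CPM or more in 3 fish, 10 under the exact test, 21 under DESeq2 and 1 for counts summed per gene. At 1.7 µg linuron/l it was 1 (exact test) and 5 (DESeq2) instead of 0, and at 225.9 µg linuron/l 1 with library totals, 1 at 5 CPM, 2 (exact test), 4 (DESeq2) and 1 in the model of 7 groups. In the direct comparison 5 became 12 at 5 CPM, 12 under DESeq2 and 2 in the model of 7 groups. Leaving out 1 fish gave 2 to 8 calls at 34.4 ng E2/l, 0 to 1 at 225.9 µg linuron/l and 4 to 11 in the direct comparison. The cause of these changes was not tested.

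The members' median log2 fold change with library totals was -0.082 for 1.9 ng E2/l, 0.028 for 34.4 ng E2/l, 0.25 for 1.7 µg linuron/l, 0.15 for 225.9 µg linuron/l and -0.076 in the direct comparison. Library totals moved the median of all transcripts to -0.11, 0.22, 0.15, 0.11 and 0.14 in these comparisons. At 5 CPM the members' median was -0.23 at 34.4 ng E2/l, 0.0065 at 15.3 µg linuron/l and -0.26 in the direct comparison, and summed per gene it was 0.018 at 15.3 µg linuron/l and -0.19 in the direct comparison. Leaving out 1 fish gave -0.23 to -0.11 at 34.4 ng E2/l and -0.27 to -0.19 in the direct comparison.

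Samples with the same replicate number did not deviate together: over 21 pairs the correlation ran from -0.436 to 0.232, with 2 above 0.1, so the numbers were not taken as pairs. The number was also fitted as a replicate block. In the comparisons with control, the numbers 4, 5 and 6 occur among the controls alone, so those fish add nothing to the exposure effect in that fit. Its changes in calls thus cannot be told apart from the loss of these controls. With the block, 6 members (2 higher, 4 lower) and 955 transcripts in all were called at 34.4 ng E2/l, against 4 and 1338 without it. Both thrap3b calls at this concentration (adjusted p = 0.0909 for seq10 and 0.0666 for seq9) were lost, as were the gsto1 and gclc calls at 225.9 µg linuron/l (adjusted p = 0.188 and 0.225), and the members' median was 0.088 for 1.9 ng E2/l, -0.015 for 34.4 ng E2/l, 0.29 at 1.7 µg linuron/l and 0.23 at 225.9 µg linuron/l. Of 8902 values recomputed for named transcripts, 20 lost and 64 gained a call. Detection by expression level was not tested.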
